A study of Mus musculus with 24 samples.

Results

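Among open chromatin regions of mouse skin stem cells, 6656 lay away from protein-coding gene ends and were held by all 8 deposited peak lists. They were chosen by joining the 267990 peaks of the lists into 63188 regions wherever peaks overlapped by at least 1 bp, keeping regions with a peak in every list, and requiring more than 1 kb to both ends of every protein-coding gene in the RefSeq annotation of the mm10 genome. They made up 13.0% of the 51173 distal regions, and are called constitutive distal regions, or members, below. Regions within 1 kb of a gene end were held by all lists far more often (7273 of 12015, 60.5%), and 22.0% of all regions were held by all lists. Presence in every list chose the regions, so it is not a result.

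The lists came from ATAC-seq, where transposase insertions mark open chromatin, on 24 samples of sorted basal skin cells from mice of a CD1 x C57BL/6J cross. Unwounded Krt19-CreER/R26-YFP mice gave hair follicle stem cells (4 samples, day 0) and epidermal stem cells (4 samples at day 0 and 3 at day 80). Partial-thickness wounds in Krt19-CreER/R26-YFP mice gave the progeny of hair follicle stem cells at day 3 (3 samples), day 7 (2) and day 80 (3), and full-thickness wounds in Sox9-CreER/R26-YFP mice gave the progeny of epidermal stem cells at day 7 (3) and day 80 (2). All groups carried a YFP reporter at the Rosa26 locus and a tamoxifen-inducible Cre driven by Krt19 or Sox9, and the driver differed between the wound types. The labels do not state sort gates, ages or sexes. Each group had 1 list, so differences between lists have no replicate check and no test was made between groups. Intervals below are exact 95% intervals of a share and cover counting error only.

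Accessible DNA far from gene ends is where most enhancers lie, short elements bound by transcription factors that can act on a promoter at a distance. Enhancers are usually open in few cell types, while promoters of widely used genes are open in most. Hair follicle stem cells keep the hair cycle going, epidermal stem cells renew the surface barrier, and both can supply cells to a wound. Distal regions open in both lineages and through repair can include shared epithelial enhancers, alternative promoters inside genes and promoters of non-coding genes.

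Some constitutive distal regions held the start of an annotated transcript, and the windows just before 5 such starts show the letters that lie there. A start counted as held if its 300 base window, 250 of them upstream, overlapped the region by 1 bp or more. The start base itself could lie outside. The first 4 shown belong to regions that stood near the top of every list. Mir205hg, the host transcript of the epithelial microRNA miR-205, stood lower. Each is the 250 bases before the start, 5′ to 3′, from RefSeq on GRCm38.p6, with capitals marking matches to a searched motif.
1700028E10Rik (chr5:151368425-151368674, plus strand): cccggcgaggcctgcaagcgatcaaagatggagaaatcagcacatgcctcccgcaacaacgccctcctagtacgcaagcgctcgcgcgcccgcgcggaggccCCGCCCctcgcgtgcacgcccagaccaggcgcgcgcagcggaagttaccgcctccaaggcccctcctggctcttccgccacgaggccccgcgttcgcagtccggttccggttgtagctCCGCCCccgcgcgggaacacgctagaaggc
Gm33989 (chr7:39552579-39552828, plus strand): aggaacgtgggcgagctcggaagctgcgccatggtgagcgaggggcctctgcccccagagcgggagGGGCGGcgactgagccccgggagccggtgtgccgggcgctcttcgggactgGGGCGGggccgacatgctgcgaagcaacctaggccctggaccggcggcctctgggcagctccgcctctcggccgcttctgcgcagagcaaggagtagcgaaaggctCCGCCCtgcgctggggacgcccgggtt
Kifap3 (chr1:163779333-163779582, plus strand): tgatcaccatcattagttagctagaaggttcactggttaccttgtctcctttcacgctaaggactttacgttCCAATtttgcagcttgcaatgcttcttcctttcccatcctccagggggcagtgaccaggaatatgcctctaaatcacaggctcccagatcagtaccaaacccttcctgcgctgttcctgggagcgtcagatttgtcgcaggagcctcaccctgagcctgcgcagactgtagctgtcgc
Hint3 (chr10:30618367-30618616, minus strand): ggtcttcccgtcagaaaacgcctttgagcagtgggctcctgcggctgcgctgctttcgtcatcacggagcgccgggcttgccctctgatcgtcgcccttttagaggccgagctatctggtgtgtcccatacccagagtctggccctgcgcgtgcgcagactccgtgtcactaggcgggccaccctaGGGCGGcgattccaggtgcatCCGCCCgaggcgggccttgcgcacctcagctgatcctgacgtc
Mir205hg (chr1:193510211-193510460, minus strand): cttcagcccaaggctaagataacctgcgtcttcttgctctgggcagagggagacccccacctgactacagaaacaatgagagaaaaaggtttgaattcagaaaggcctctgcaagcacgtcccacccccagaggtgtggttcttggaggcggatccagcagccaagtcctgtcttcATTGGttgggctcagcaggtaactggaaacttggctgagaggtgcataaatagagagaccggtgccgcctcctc
The motifs searched, on both strands, were the AP-1 site TGANTCA, the GC box GGGCGG, the CCAAT box CCAAT, the TATA box TATAAA and a CTCF core motif, with N for any base. The window of 1700028E10Rik, a long non-coding RNA that starts inside Stard13, held 2 GC boxes and 34 CG pairs. The Gm33989 window shown held 3 GC boxes and 27 CG pairs, while a second window of that gene in the same region (chr7:39552248-39552497) held 3 CCAAT boxes, no GC box and 9 CG pairs. The window of Hint3, a histidine triad protein gene, held 2 GC boxes and 23 CG pairs. The window of Kifap3, which encodes a kinesin-2 subunit, held 1 CCAAT box and 7 CG pairs, and that of Mir205hg 1 and 5. Of the 5 windows shown, those with GC boxes held more CG pairs than those with a CCAAT box. All constitutive distal windows (1196) held 14.4 CG pairs on average, against 9.85 in all 32817 windows of the table.

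Before the starts in constitutive distal regions, shares with a GC box, AP-1 site, CCAAT box or TATA box stood between those at gene ends and in other distal regions. GC boxes were in 48.6% of the 1196 windows (45.7 to 51.5), against 64.4% of 8158 windows in regions at gene ends held by all lists, 27.7% of 1350 windows in other distal regions and 32.7% of all windows. AP-1 sites were in 6.44% (5.11 to 7.98), against 3.70% at gene ends, 12.8% in other distal regions and 6.75% of all windows. The CCAAT box was in 33.5%, 38.5%, 30.6% and 33.8%, the TATA box in 6.19%, 4.92%, 9.04% and 12.4%, and the CTCF core in 2.51%, 2.51%, 3.48% and 2.07% of the same 4 sets. GC content was 58.3%, 61.6%, 53.6% and 53.2%. Over the 3 classes of regions, from gene ends to other distal regions, the shares with a GC box fell and those with an AP-1 site or a TATA box rose, with the constitutive distal windows between. Windows before protein-coding starts inside the members (747) held a GC box in 57.6% and those before long non-coding starts (448) in 33.5%. The mix of kinds differed by class. Protein-coding starts were in 619 members and long non-coding ones in 383, against 452 and 759 other distal regions. Windows of the other classes were not split by kind, so what the mix adds to these differences was not tested.

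Some microRNA genes lay near constitutive distal regions, and their mature sequences fall into seed families. Of 1005 hairpins in the table, 63 lay within 5 kb of such a region, 21 within 1 kb, and 12 overlapped one. Counted by region, 0.826% (0.623 to 1.07) had a hairpin within 5 kb and 0.316% (0.195 to 0.482) within 1 kb, against 0.478% (0.416 to 0.547) and 0.166% (0.131 to 0.209) of other distal regions. Capitals mark the seed, bases 2 to 8, which pairs with target messages. The 11 shown were chosen for shared seeds or known roles in epithelia, after the distances were known.
miR-205-5p: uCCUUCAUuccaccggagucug
miR-200b-3p: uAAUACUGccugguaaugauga
miR-429-3p: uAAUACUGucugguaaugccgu
miR-200a-3p: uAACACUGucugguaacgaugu
let-7i-5p: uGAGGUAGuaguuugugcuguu
let-7c-5p: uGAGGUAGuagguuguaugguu
miR-17-5p: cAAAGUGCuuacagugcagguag
miR-20a-5p: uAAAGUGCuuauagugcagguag
miR-193a-3p: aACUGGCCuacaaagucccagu
miR-193b-3p: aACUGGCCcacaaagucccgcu
miR-21a-5p: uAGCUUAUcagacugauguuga
The 2 microRNAs miR-200b-3p and miR-429-3p share the seed AAUACUG, let-7i-5p and let-7c-5p share GAGGUAG, miR-17-5p and miR-20a-5p share AAAGUGC, and miR-193a-3p and miR-193b-3p share ACUGGCC. The miR-200 family, which represses the mesenchymal factors Zeb1 and Zeb2, had the strongest region of these. It lay at chr4:156058581-156060354, 2831 bp from the hairpin of miR-200b, 3596 bp from that of miR-200a and 4594 bp from that of miR-429. Its list percentile, the percentile of its strongest peak by the authors' score among all peaks of a list, ran from 85.3 to 97.6 over the 8 lists. The region 743 bp from Mir205 (chr1:193508273-193510927) ran from 18.7 to 77.9, and the one 2222 bp from Mir21a (chr11:86586380-86587898) from 33.7 to 80.9. The let-7i hairpin lay inside a region of 4410 bp at chr10:122983772-122988181 (25.6 to 71.5). The miR-193a hairpin lay inside chr11:79710098-79712175 (3.4 to 79.4). The region 804 bp from Mir17 (chr14:115040035-115042867) ran from 55.3 to 80.5. Holding a peak in all lists thus went with a strong peak in every list at the miR-200 genes and with a weak peak in at least 1 list at miR-193a and miR-205.

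The lists differed in ways that bear on every comparison below. They held 29365 to 37214 peaks of median width 460 to 987 bp, and their lowest scores ran from 54 to 377. Peaks in constitutive distal regions were 18.5% to 23.0% of each list. Of 15 basal keratinocyte genes, 7 had a region in all 8 lists within 1 kb of a gene end, among them Krt14, Krt15 and Itgb1. Others had one in fewer lists, such as Krt5 (7), Itga3 and Dst (5) and Col17a1 (3), and Lamb3 had none. None of 13 immune genes, including Ptprc and Cd3e, had one in any list, while 1 of 10 fibroblast genes (Col1a1), 0 of 7 endothelial genes and 3 of 7 melanocyte genes (Mitf, Dct and Pmel) had one in all 8. The melanocyte genes Tyr, Tyrp1, Sox10 and Kit had none in any list. Hair follicle stem cell genes had one in all 8 lists for 4 of 12 (Tcf7l2, Lrig1, Gas1 and Barx2). Housekeeping genes had one in all 8 for 11 of 14, neuron genes for 1 of 9 and liver genes for 1 of 8. The same share over all genes was not counted, so these counts describe the lists and do not check the tissue label.

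The regions just short of the rule were short of it mostly by the hair follicle list. Of 4334 distal regions in exactly 7 lists, the hair follicle list was the missing one for 2809 (64.8%, 63.4 to 66.2), and each other list for 54 to 376. It is the shortest list. For the 994 regions at gene ends in exactly 7 lists it was missing for 23.6%, less often than the day 0 epidermal list (29.4%). At the distance limit, the 323 constitutive distal regions 1 to 2 kb from a gene end and the 209 regions 500 bp to 1 kb from one were much alike: 39.3% and 45.0% held a transcript start, and median widths were 1473 and 1498 bp. Across the autosomes and X the share of distal regions in all lists ran from 10.8% on X (98 of 905) to 15.0% on 19 and 7, and Y had 1 distal region, which was not a member.

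Constitutive distal regions were wide and more often held a transcript start than other distal regions. Their median width was 1349.5 bp, against 812 bp for other distal regions and 1632 bp for regions at gene ends held by all lists. A joined region can only gain width from more lists. Inside a protein-coding gene lay 3495 (52.5%, 51.3 to 53.7), against 49.0% of other distal regions. The other 3161 lay a median 26658 bp from the nearest gene, against 34615 bp. Farther than 100 kb lay 8.64%, against 13.1%. By overlap of its window, a RefSeq transcript start was counted in 935 (14.0%, 13.2 to 14.9). The shares were 2.66% (2.51 to 2.81) of the 44517 other distal regions and 4.85% of those in 7 lists. Because wide regions hold more starts, the count was also made in 1 window for all: a start within 500 bp of the centre was found for 11.5%, 2.33% and 4.06%. Starts of protein-coding genes, at promoters inside the gene's span, were in 619 (9.30%), long non-coding starts in 383 (5.75%), and 67 regions had both. For other distal regions the shares were 1.02% and 1.70%, so protein-coding starts were the more frequent kind in constitutive regions and the less frequent kind elsewhere.

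**Figure D1:**
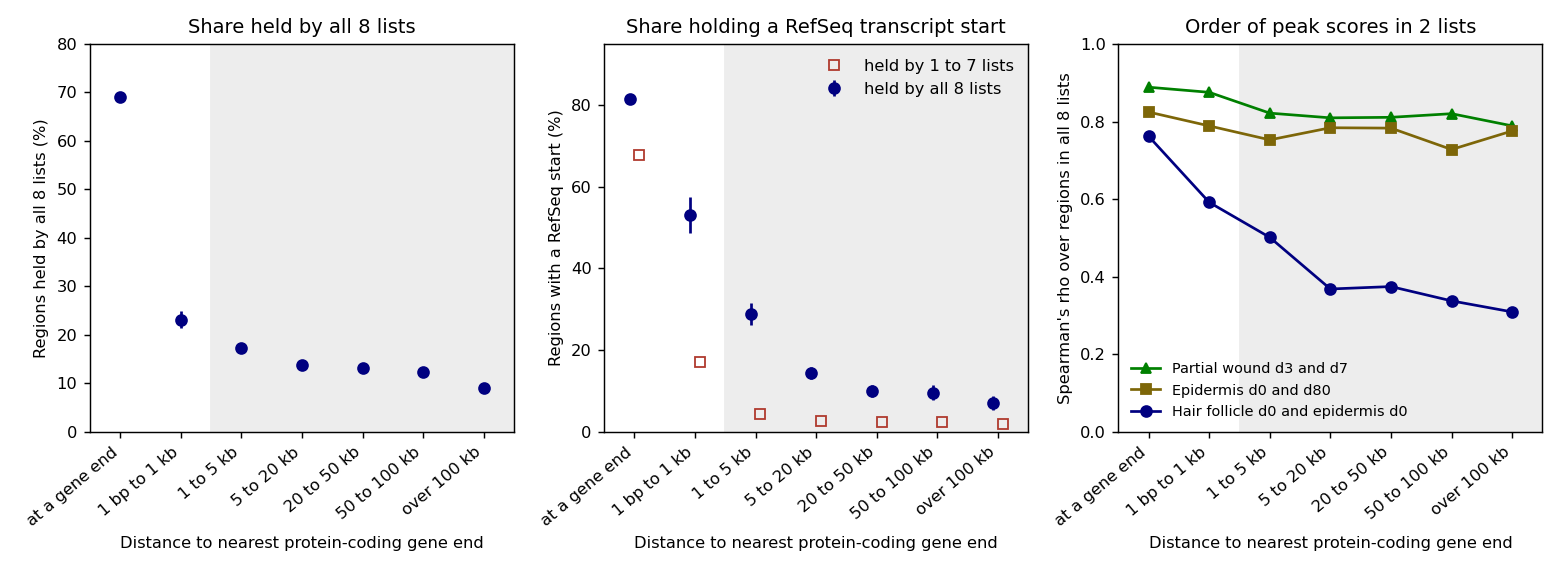
Regions by distance to the nearest protein-coding gene end: percent held by all 8 lists (left), percent with a RefSeq start for regions in all 8 lists and for others (middle), and Spearman's rho of peak scores between 2 lists over regions in all 8 lists (right). Bars are exact 95% intervals and grey marks the distal bins; the hair follicle line falls from 0.76 to 0.31 while the 2 other lines stay at 0.73 or above.

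The share of regions in all lists fell from 69.0% at a gene end to 23.1% up to 1 kb away, 17.4% at 1 to 5 kb, 13.8% at 5 to 20 kb, 13.3% at 20 to 50 kb, 12.3% at 50 to 100 kb and 9.01% beyond. The share of regions in all lists that held a start fell from 81.4% to 53.0%, 28.8%, 14.3%, 9.97%, 9.50% and 6.93% over the same bins. The first bin after the rule's limit therefore still held many starts, and those from 20 kb outward held few. Those beyond 100 kb (866 with every list) kept a share of starts above that of the others in the same bin (1.93%).

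The point of highest signal was close in all lists for many of these regions. All 8 summits lay within 100 bp in 2756 (41.4%, 40.2 to 42.6), against 32.6% (31.5 to 33.7) of regions at gene ends held by all lists. The median spread was 117 bp against 144 bp. Spreads over 500 bp went the other way, at 878 (13.2%, 12.4 to 14.0) against 11.6% (10.9 to 12.4) at gene ends. In 5938 regions (89.2%) every list had 1 peak, and in 6414 the strongest peaks of all lists shared at least 1 base, with a median shared core of 485 bp. In the other 242 (3.64%) no base was shared by all strongest peaks, and these were wide, at a median of 2436.5 bp. Most constitutive distal regions thus had 1 shared core, and a few were joined from neighbouring peaks. The widest, of 4820 bp inside the gene for plectin, which ties keratin filaments to hemidesmosomes (Plec, chr15:76195073-76199892), had list percentiles of 54.8 in the hair follicle list, against 15.8 to 46.3 in the others, and its summits were spread over 1943 bp. The other 4 lay at Mon2 (the let-7i region), Mgat1, Tenm4 and Irf2bp2, with widths of 3942 to 4410 bp. The Tenm4 region had summits within 282 bp in spite of its width.

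Few constitutive distal regions were strong in every list. In the top 10% of every list by score stood 110 (1.65%), of which 32 (29.1%) held a start, against 628 (8.63%) of regions at gene ends. In the lower 50% of every list stood 118 of 6656, against 67 of 7273 at gene ends. In the top 10% of one list and the lower 50% of another stood 1063 (16.0%), against 517 (7.11%) at gene ends. The median list percentile was 60.0 in the hair follicle list, against 67.5 to 73.0 in the other 7.

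The strongest region by its lowest list percentile lay in Cc2d2a, a gene of the ciliary transition zone (chr5:43692230-43693608, 29856 bp from a gene end). Its list percentiles were 99.7 for hair follicle, 99.6 for epidermis at both times, 99.8, 99.7 and 100 for partial-thickness days 3, 7 and 80, and 99.9 and 100 for full-thickness days 7 and 80. The authors' fold enrichments there were 16.6, 15.2, 13.6, 12.5, 14.4, 14.8, 12.2 and 21.7 in the same order. The 8 summits lay within 1 bp, and no RefSeq start was in the region. The next, at the 1700028E10Rik start in Stard13 (chr5:151367994-151369834), had percentiles of 99.3 to 99.9, and the Kifap3 region (chr1:163779178-163780268) 98.9 to 100, with fold enrichments of 14.1 to 21.9. The others of the leading 10 lay in Pcmtd1, Gm33989, the zinc finger gene Zfp446, Proser2 and Hint3, 6041 bp from the corepressor gene Mier3 and 44725 bp from Zfp958, each at 97.7 or above in every list. Of these 10, 4 held a start. The weakest, by their highest list percentile, were a 484 bp region 3371 bp from Nfkbiz, a nuclear regulator of NF-kappaB (chr16:55807521-55808004, 3.6 to 23.6), and regions in Pkig, an inhibitor of protein kinase A (3.6 to 28.7), the ERK phosphatase gene Dusp7 (5.6 to 29.0) and the kinase gene Pak4 (7.4 to 29.4), and one 27345 bp from the myosin gene Myl1 (8.6 to 31.8). The region at Pkig had all summits within 9 bp, so that a weak region could be as sharply placed as a strong one.

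The 5 regions farthest from any protein-coding gene lay 943824 to 1417909 bp away. The farthest, toward Efnb2, an ephrin ligand gene (chr8:7198336-7199326), had list percentiles from 6.4 in the day 7 full-thickness list to 89.0 in the day 0 epidermal list. Next came 3 neighbouring regions on the Cited2 side of chromosome 10, 1133175 to 1169345 bp from that gene of a CBP/p300-binding protein. They differed from each other: in the day 3 partial-thickness list their percentiles were 0.9, 46.6 and 96.0. The fifth, 943824 bp from Gata3, a factor of hair follicle and epidermal development (chr2:8912182-8913254), stood at 82.8 in the hair follicle list, against 5.5 and 40.1 in the epidermal lists of days 0 and 80.

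Although all 8 lists held these regions, pairs of lists shared the order of their scores to unlike degrees. To compare lists of unequal length, each region was also ranked among the same 6656 in each list, as a percentile called the member rank. Between the hair follicle list and the other 7, Spearman's rho over the 6656 regions was 0.25 to 0.43. It was 0.38 with the day 0 epidermal list, where the regions at gene ends gave 0.75. The epidermal lists of day 0 and day 80 gave 0.77, and the 3 pairs of early wound lists gave 0.81 (partial-thickness days 3 and 7), 0.76 (partial-thickness day 3 and full-thickness day 7) and 0.70 (both wound types at day 7). Epidermal lists set against early wound lists gave 0.38 to 0.55, so low values were not confined to the hair follicle list. The day 80 partial-thickness list, labelled as hair follicle progeny, gave 0.36 with the hair follicle list and 0.71 with the day 80 epidermal list. The day 80 full-thickness list gave 0.75 with the day 0 epidermal list and 0.37 with the hair follicle list. Regions with a start gave 0.58 between the hair follicle and day 0 epidermal lists and regions without one 0.35. When the authors' fold enrichment was ranked in place of the score, the pair gave 0.56, and regions at gene ends 0.78. The day 80 partial-thickness list then gave 0.53 with the hair follicle list and 0.72 with the day 80 epidermal list. By fold, epidermal lists against early wound lists gave 0.58 to 0.69, and the hair follicle list against the other 7 gave 0.49 to 0.57. The points of these correlations are the same regions in each pair of lists, share the lists' depth and peak width, and are not replicates.

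**Figure D2:**
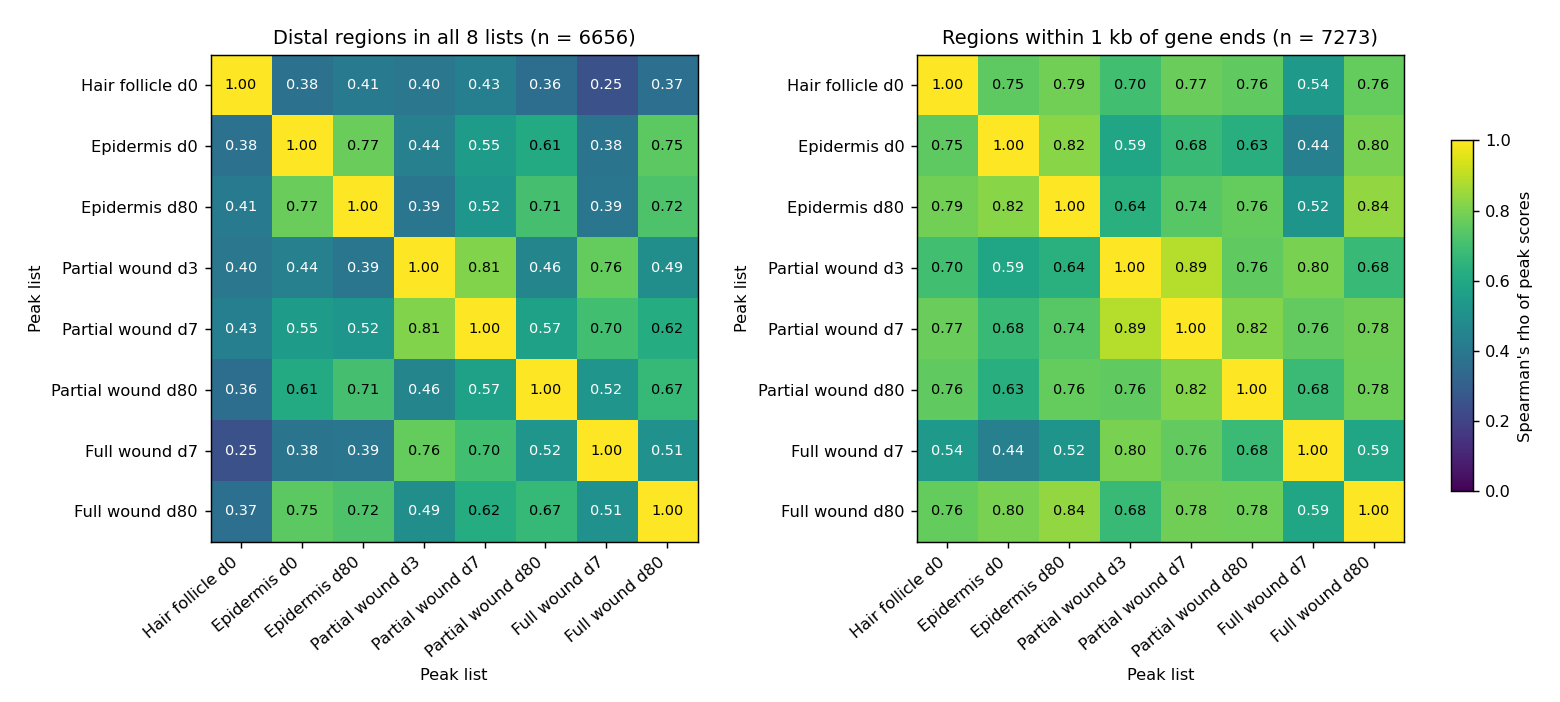
Spearman's rho of peak scores for each pair of the 8 lists over the 6656 distal regions (left) and the 7273 regions within 1 kb of gene ends (right) held by all lists. In the left panel the hair follicle row runs from 0.25 to 0.43, and in the right panel from 0.54 to 0.79.

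By distance, the rho of the hair follicle and day 0 epidermal lists fell from 0.76 at gene ends to 0.59 up to 1 kb away, 0.50 at 1 to 5 kb, 0.37 at 5 to 20 kb, 0.37 at 20 to 50 kb, 0.34 at 50 to 100 kb and 0.31 beyond. The rho of the 2 epidermal lists was 0.82, 0.79, 0.75, 0.78, 0.78, 0.73 and 0.78. Between the hair follicle and day 0 epidermal lists the order was thus less shared with distance. Between the 2 epidermal lists the rho stayed within 0.73 to 0.82. With fold enrichment the hair follicle pair gave 0.78, 0.72, 0.67, 0.54, 0.55, 0.50 and 0.51, a fall in the same direction from a higher level.

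Among the contrasts counted, rank differences over 30 points were most frequent where the hair follicle list was on one side. No early wound list was set alone against an epidermal list, and contrasts of means and of single lists were mixed. In the hair follicle list 997 regions (15.0%) ranked over 30 points higher than in the mean of both epidermal lists and 1027 (15.4%) lower. Between the epidermal lists of day 80 and day 0 the counts were 396 and 452, between the early wound lists and the unwounded lists (means of 3 each) 686 and 728, and between the day 80 full-thickness list and the epidermal lists 389 and 375. The day 80 partial-thickness list differed from the epidermal mean at 605 and 551 regions and from the hair follicle list at 1134 and 1132. Ranks in a fixed set balance by construction, so a count on one side is close to that on the other. In bulk sorted cells, fewer cells with an open region and less signal per cell cannot be told apart. The limit of 30 points was set after values were seen.

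The regions named next had the largest differences between the hair follicle list and both epidermal lists, so their ranks in those lists are a description. The member ranks are given in the order hair follicle, epidermal days 0 and 80, partial-thickness days 3, 7 and 80, full-thickness days 7 and 80. A region 10445 bp from Cdv3 (chr9:103376280-103377189) ranked 91.3, 4.1, 0.5, 49.0, 41.8, 2.4, 6.3 and 11.8. A region 374629 bp from Cited2 (chr10:17347545-17348599) ranked 98.6, 13.7, 10.6, 74.0, 15.4, 4.4, 37.3 and 0.1. A region in Etv5, an ETS factor gene (chr16:22428492-22430436), ranked 93.8, 5.3, 11.4, 38.5, 33.9, 6.2, 12.2 and 19.2. All 3 were high in the hair follicle list alone of the unwounded lists and stood higher at day 3 after partial-thickness wounding than in epidermis, and ranked 2.4 to 6.2 at day 80 in that wound type. The regions at Ube2n, which encodes a ubiquitin-conjugating enzyme (chr10:95508037-95509540), and at Prkcq, which encodes protein kinase C theta (chr2:11338833-11339809), ranked 94.4 and 87.1 in the hair follicle list and 79.5 and 81.0 at day 3. The other 3, in Ttll12, toward Slc30a5 and in Foxn3, ranked 0.1, 15.6 and 26.4 at day 3, so the early wound list did not place all of them high.

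The 8 regions lowest in the hair follicle list lay at genes of unlike roles. A region 345833 bp from Igfbp3, an insulin-like growth factor binding protein gene (chr11:7561331-7562349), ranked 2.5, 95.8, 98.8, 87.3, 97.1, 95.8, 97.1 and 99.7 in the same order, with fold enrichments of 6.6 in the hair follicle list, against 12.9 to 20.3 in the others. A region 7071 bp from the Wnt ligand gene Wnt16 (chr6:22279209-22281107) ranked 4.5, 93.4, 98.1, 8.1, 50.7, 87.8, 35.2 and 95.5. A region in Ggh, which encodes a folate hydrolase (chr4:20063015-20064204), ranked 1.0, 94.4, 95.2, 29.1, 24.6, 91.9, 4.6 and 91.1. The Igfbp3 region was low in the hair follicle list alone, while those at Wnt16 and Ggh were also lower in the early wound lists than in epidermis and ranked 87.8 to 95.5 at day 80 in both wound types. The regions at Gm46911 (chr5:43071931-43073743) and in Serpinb2, the gene of plasminogen activator inhibitor 2 (chr1:107505215-107506615), followed the Igfbp3 pattern, at 98.9 to 99.9 and 89.5 to 99.4 outside the hair follicle list. Those at Dok5, an adaptor gene, in the microtubule-binding gene Mapre2 and in the tetraspanin gene Tspan8 ranked 2.5, 5.6 and 8.3 in the hair follicle list, against 85.5 to 98.8 in the day 80 partial-thickness list.

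**Figure D3:**
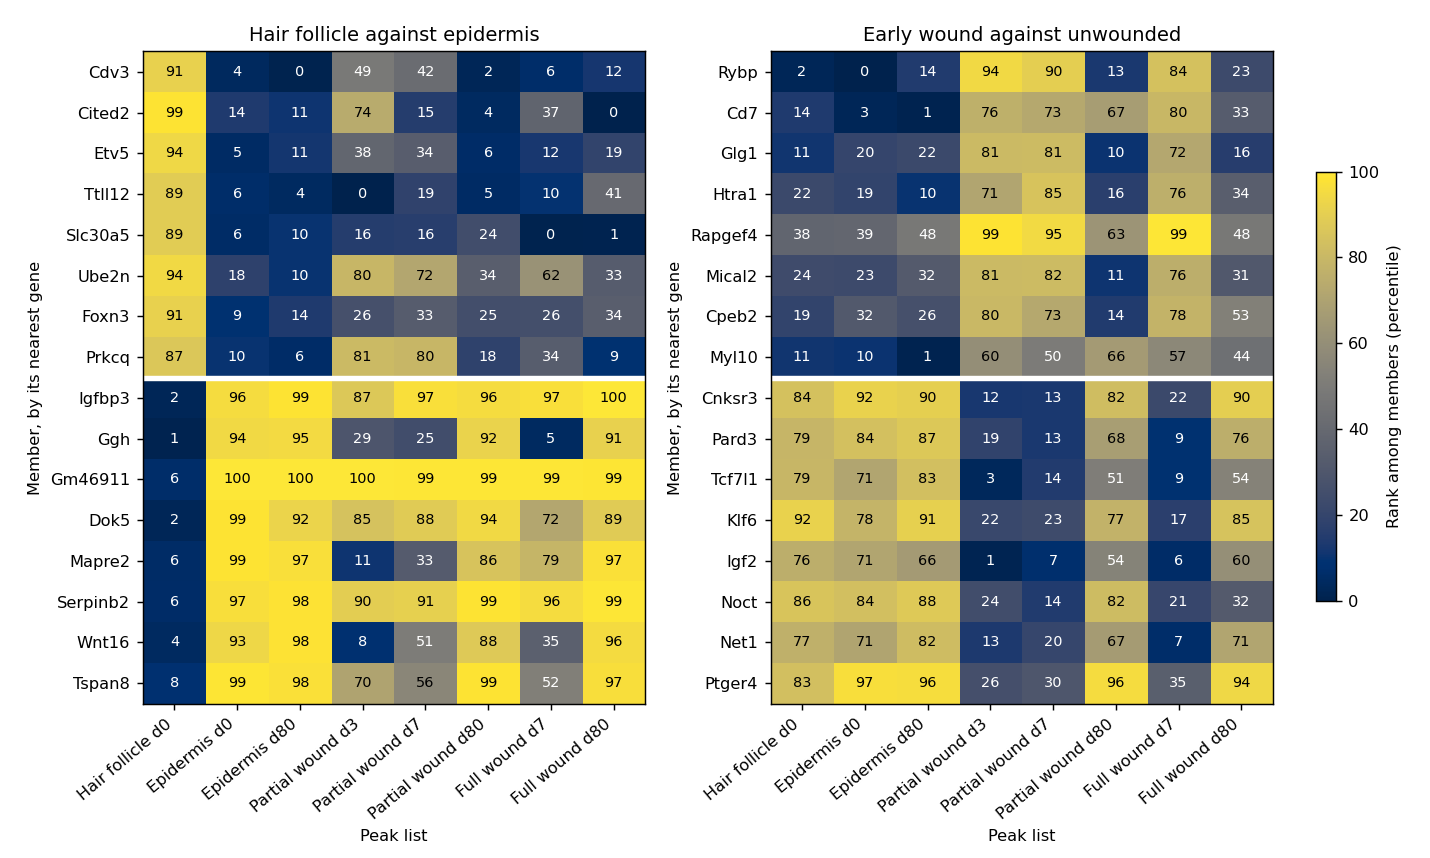
Member rank (percentile among the 6656 regions, colour and printed value) in each of 8 lists for 16 regions named by the largest hair follicle to epidermis difference (left) and 16 by the largest early wound to unwounded difference (right), with higher ones above the white line. In the right panel all 8 regions below the line rank from 51.2 to 95.8 in the day 80 partial-thickness list.

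All regions that ranked over 30 points higher in the hair follicle list than in each epidermal list (663, 9.96%) or lower (775, 11.6%) showed where the wound lists stood. Their ranks in the 5 wound lists were not used to choose them. The higher set had median ranks of 45.0 at day 3, 39.8 at day 7 and 29.8 at day 80 after partial-thickness wounds, and 37.9 at day 7 and 28.9 at day 80 after full-thickness wounds. The lower set had 53.1, 58.1 and 70.1, and 58.5 and 75.3. All members have a median near 50 in each list by construction. The sets therefore lay close together in the day 3 list and apart, on the epidermal side, at day 80 in both wound types. A start lay in 12.5% (10.1 to 15.3) of the higher set and 4.52% (3.17 to 6.23) of the lower set, against 14.0% of all constitutive distal regions.

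**Figure D4:**
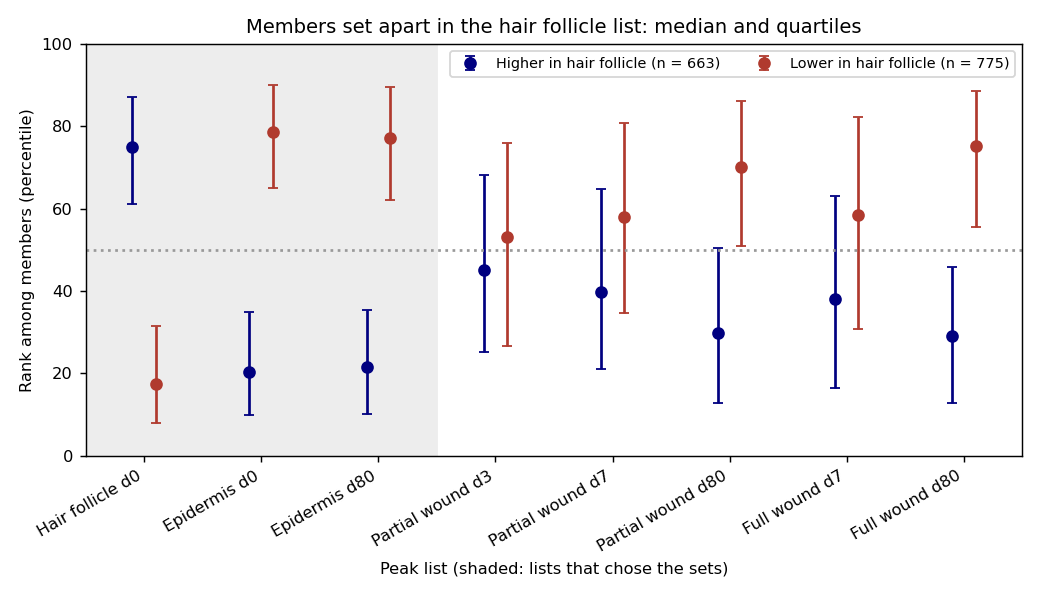
Median member rank (points) and quartiles (bars) in each list for the 663 regions ranked higher and the 775 ranked lower in the hair follicle list; the shaded lists chose the sets and the dotted line is 50. The medians are 45.0 and 53.1 in the day 3 list and 29.8 and 70.1 in the day 80 partial-thickness list.

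Early wound lists of both wound types set other regions apart. The 686 regions with a mean rank over 30 points above the unwounded lists had medians of 76.3, 71.7 and 77.9 in the lists that chose them (partial-thickness days 3 and 7, full-thickness day 7), and of 41.5 and 43.6 in the day 80 partial- and full-thickness lists, which did not. They had 25.4 to 28.8 in the unwounded lists. The 728 lower regions had 17.3, 25.5 and 17.3 in the early lists, 53.7 and 55.7 at day 80, and 66.4 to 71.6 in the unwounded lists. A list unrelated to the choice has a median near 50, so day 80 medians between the 2 sides carry little by themselves. Partial-thickness lists come from hair follicle progeny and full-thickness lists from epidermal progeny, with different Cre drivers, so wound type, lineage and genotype cannot be told apart.

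Of the regions highest in early wound lists, one 26330 bp from Rybp, a Polycomb repressor subunit gene (chr6:100313688-100315067), ranked 2.5, 0.3, 14.3, 94.5, 89.9, 12.7, 84.1 and 22.9, with all summits within 50 bp. One in the exchange factor gene Rapgef4 (chr2:72077269-72078863) ranked 38.1, 38.9, 48.4, 98.7, 94.7, 62.9, 99.4 and 48.2, and one 21365 bp from the serine protease gene Htra1 (chr7:131007023-131007900) ranked 22.3, 19.3, 10.1, 71.1, 85.3, 16.5, 75.8 and 34.0. All 3 were high in the 3 early lists and ranked 22.9 to 48.2 at day 80 after full-thickness wounds. The region at Cd7, 21110 bp away and at the end of a long non-coding gene (chr11:121013794-121015637), ranked 67.3 at day 80 in the partial-thickness list and that at Myl10 66.1, while those at Glg1, Mical2 and Cpeb2 ranked 10.4, 10.8 and 14.3. The day 80 partial-thickness list was therefore not uniform over these regions.

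Among the 8 regions lowest in early wound lists was one in Tcf7l1. A region in Tcf7l1, a Wnt effector known from hair follicle stem cells (chr6:72723853-72725406), ranked 79.3, 71.3, 83.3, 3.4, 14.5, 51.2, 8.8 and 53.9. A region 19443 bp from the zinc finger factor gene Klf6 (chr13:5840322-5842046) ranked 91.7, 78.2, 91.0, 21.5, 23.2, 77.4, 16.9 and 85.0. A region 292989 bp from Ptger4, a prostaglandin E2 receptor gene (chr15:5537176-5537983), ranked 83.3, 96.6, 96.4, 25.9, 29.5, 95.8, 34.6 and 94.1. These 3 ranked 34.6 or below in all early lists and 51.2 or above at day 80 in both wound types. The regions at Cnksr3 (chr10:7257920-7259055), at the polarity gene Pard3 (225538 bp away), at Igf2 (19562 bp away) and in Net1 did the same. The region 66998 bp from Noct, a circadian phosphatase gene (chr3:51155643-51157449), ranked 81.9 at day 80 in the partial-thickness list and 32.3 in the full-thickness list. A nearest gene here is a place, and which gene a region acts on was not measured.

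Of the constitutive distal regions, 5604 (84.2%) lay in or within 50 kb of a protein-coding gene and were assigned to 3620 of 21896 genes. Within that distance 13.7% of all distal regions were constitutive. Of the 3620 genes, 2469 (68.2%) had 1, and 95 had 5 or more. Most lay at Pde4d, a cAMP phosphodiesterase gene spanning 1302 kb, with 11 of its 48 distal regions in all lists. Mbnl2, a splicing factor gene, had 10 of 19, the chromatin remodelling subunit gene Arid1b 10 of 29 and the Rac exchange factor gene Tiam1 10 of 32. Ets2, an ETS factor gene, had 9 of 19, Nfkb1, an NF-kappaB subunit gene, 9 of 20, Sgms1 9 of 28 and Auts2 9 of 50. Nhsl1 and Stard13 had 8 of 25 and 8 of 32, and Macrod2 tied with them at 8. Within 10 kb of a gene in place of 50 kb, Ets2 kept 2 and Nfkb1 5. Of these genes Ets2, at 18.6 kb, was the shortest. Of the 11 regions at Pde4d, only chr13:109880760-109881972 ranked higher in the hair follicle list (96.8) than in the day 0 epidermal list (91.8). It ranked 68.7 in the day 80 epidermal list. The others ranked lower in the hair follicle list than in the day 0 epidermal list. Among them, chr13:109651619-109652584 ranked 20.3, against 98.8 and 88.7 in the epidermal lists of days 0 and 80.

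Several genes fixed by name had few distal regions and no constitutive one. Krt14 had 0 of 2 distal regions, Krt5 0 of 1, Itgb4 0 of 1, Klf5 0 of 3 and Sox9 0 of 5. Beside a share of 13.7% over all distal regions within 50 kb of a gene, counts this small say little. The whole basal keratinocyte list, given below, had 22 of 97 (22.7%). Trp63, the p63 gene of stratified epithelia, had 1 of 21 (chr16:25777419-25780595), which ranked 72.0, 21.6, 77.8, 60.3, 74.2, 76.0, 63.9 and 28.9. Itga6, an integrin gene of the hemidesmosome, had 2 of 10, both at a member rank of 56.1 or below in every list. Egfr, the epidermal growth factor receptor gene, had 4 of 24. Of these, chr11:16829684-16831127, at the start of the non-coding transcript Egfros, ranked 73.4 to 91.6 in all lists, while chr11:16800211-16801470 ranked 36.8 in the hair follicle list, against 95.5 and 94.5 in the epidermal lists. Jun had 1 of 9, at the start of Junos (chr4:95074989-95077086), which ranked 21.7 in the hair follicle list, 94.2 and 92.1 for epidermis and 47.1 at day 3. Nfib, a factor gene of hair follicle stem cells, had 4 of 23.

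The gene lists were chosen with earlier results of these data known, so their shares are a description beside the 13.7% of all distal regions within 50 kb of a gene. AP-1 genes, whose factors respond to stress and growth signals, had 24 of 79 (30.4%, 20.5 to 41.8). Bach2 gave 7 of 24, Atf3 4 of 7, Fos 4 of 10 and Fosl2 3 of 7. Adhesion and junction genes had 24 of 105 (22.9%, 15.2 to 32.1), with 5 of 13 at the plakophilin gene Pkp1, 4 of 8 at the desmoplakin gene Dsp, and 3 of 9 at Perp. Basal keratinocyte genes had 22 of 97 (22.7%, 14.8 to 32.3), with 5 of 21 at Dst and 3 of 7 at Plec. Hippo pathway genes had 16 of 73 (21.9%, 13.1 to 33.1), with 4 of 12 at Vgll4, and Notch pathway genes 19 of 87 (21.8%, 13.7 to 32.0), with 7 of 23 at the coactivator gene Maml3. The epidermal growth factor group had 12 of 68 (17.6%, 9.46 to 28.8). These 6 lists, like the housekeeping genes below, lay above the background share, 3 of the 6 (AP-1, adhesion and basal keratinocyte) with an interval wholly above it. Regions at 1 gene share its locus, so the intervals are too narrow for a list.

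The lists of factors and of stem cell genes had shares of 12.3% to 13.7%. Keratinocyte transcription factor genes had 21 of 153 (13.7%), with 3 of 7 at Klf4, NFI and SOX genes 12 of 93 (12.9%), with 7 of 25 at Nfia, epidermal stem cell genes 10 of 75 (13.3%) and hair follicle stem cell genes 14 of 114 (12.3%), with 3 of 15 at Barx2. Wound and stress genes had 3 of 44 (6.82%), all at Hif1a, the hypoxia factor gene. Differentiation genes had 2 of 13 (15.4%), both at Sbsn. Wound and stress genes thus lay below the background share, inside an interval of 1.43 to 18.7. Housekeeping genes had 5 of 20 (25.0%, 8.66 to 49.1), a share above all lists but AP-1 on few regions, and genes of chromatin architecture 3 of 27 (11.1%). Markers of other cell types had 0 of 14 (immune), 0 of 17 (fibroblast), 2 of 37 (endothelial), 1 of 20 (melanocyte), 5 of 48 (neuron) and 0 of 1 (liver). With 0 of 14 and 0 of 17, shares up to 23.2% and 19.5% remain within the intervals.

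**Figure D5:**
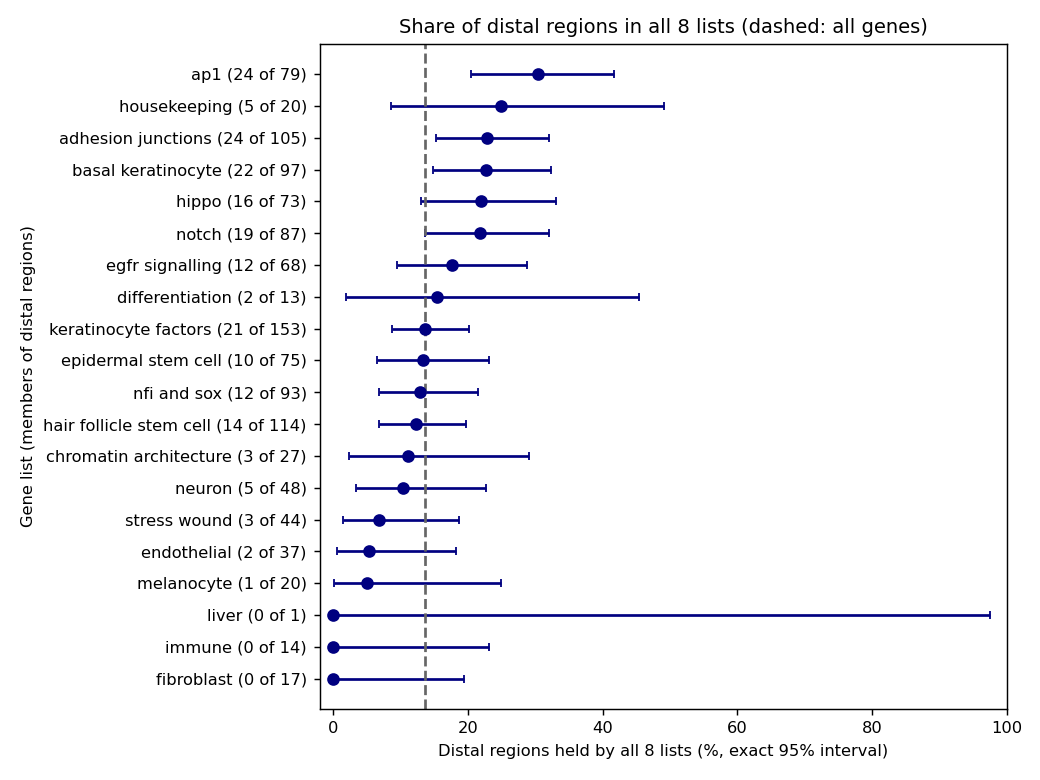
Percent of the distal regions within 50 kb of the genes of each list that were held by all 8 lists (points) with exact 95% intervals (bars); counts stand beside the names and the dashed line is 13.7%. AP-1 genes are at 30.4% and the immune and fibroblast genes at 0.

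The members at AP-1 and junction genes were not high in every list. At Fos, an immediate early gene, the region 4938 bp away (chr12:85467031-85468952) ranked 2.5, 4.3, 9.9, 19.1, 16.5, 36.4, 19.0 and 45.0. At Atf3, a stress-induced factor gene, the region 9781 bp away (chr1:191193114-191194353) ranked 74.7, 64.3, 91.4, 97.9, 95.9, 99.0, 90 and 75.9, and the one 49223 bp away ranked 2.8 to 56.1. The first Atf3 region was thus high in every list and the Fos region low in most. At Dsp, a region 5535 bp away (chr13:38144908-38145759) ranked 50.2, 12.5, 33.1, 81.9, 72.1, 42.4, 73.8 and 25.8, higher in the 3 early wound lists than in the other 5. At Klf4, a factor gene of the differentiating epidermis, a region 11661 bp away (chr4:55514326-55515476) ranked 60.5, 24.3, 29.7, 73.3, 58.9, 22.2, 61.1 and 2.9. Over all members of a list, the AP-1 regions had median ranks of 37.4 to 51.6 in the 8 lists and the basal keratinocyte regions 30.2 to 63.2. The epidermal growth factor group had medians of 60.0 to 73.2, and the Notch regions 29.2 to 67.3. The lists with a large share in all lists thus differed in their ranks.

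Some constitutive distal regions lay close together. Joined at gaps under 20 kb, 2216 (33.3%) stood in 953 chains of 2 or more, 221 of them of 3 or more, and 4440 stood alone. Such shares grow with the number of regions: 79.3% of all 51173 distal regions stood in chains of their own class, 40.3% of the 15830 in exactly 1 list, 21.7% of the 7264 in exactly 2, 21.1% of the 4334 in 7, and 22.8% of the 7273 gene-end regions in all lists. The share was thus higher than in the 2 classes of about the same size, and was not tested. The longest by number lay on 1 side of Myrfl on chromosome 10 (8 of 12 distal regions over 78.8 kb, 116693277 to 116772107) and inside Mbnl2 on chromosome 14 (8 of 10 over 59.5 kb). Then came 7 of 13 between Tex44 and Ptma, 6 of 8 at Ets2 and 6 of 8 in Dlgap1. Members of 1 chain differed in strength. In the Myrfl chain, chr10:116693277-116694916 had list percentiles of 92.7 to 96.7, and chr10:116717944-116719381 stood at 20.7 in the hair follicle list, against 24.5 and 8.6 in the epidermal lists. In the Ets2 chain, chr16:95728621-95729787 stood at 24.0 for hair follicle, 93.6 and 96.3 for epidermis and 97.9, 98.5 and 99.0 after partial-thickness wounds. Farther along the chain, chr16:95759912-95760643 stood at 90.4 in the hair follicle list, with the regions between them at 3.5 and 25.2. Of the 6 regions of that chain, 4 stood at 25.2 or below in the hair follicle list.

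Ends of non-coding genes were also frequent. Within 1 kb of one lay 874 constitutive distal regions (13.1%, 12.3 to 14.0), against 6.91% (6.68 to 7.15) of other distal regions. Long non-coding genes accounted for 721 (10.8%, against 5.31%). Transfer RNA genes gave 50 (0.751%, 0.558 to 0.989, against 0.126%), small nuclear RNA genes 25 (0.376% against 0.115%), microRNA genes 23 (0.346% against 0.193%) and pseudogenes 63 (0.947% against 1.0%). Transcribed pseudogenes, counted apart, gave 15 (0.225% against 0.0831%), and small nucleolar RNA genes 13 (0.195% against 0.144%). For transfer RNA genes, read by RNA polymerase III, the ratio of the shares was the highest of these kinds. For pseudogenes other than transcribed ones the shares were close. Members were wider than other distal regions, which raises such counts. Regions at transfer RNA genes were in the upper 50% of every list for 23 of 50 (46.0%), against 32.2% of all members. This share rests on only 50 regions, and the difference was not tested. The strongest, at the gene n-TEttc7 on the Atp10a side of chromosome 7 (chr7:58398353-58399983), had list percentiles of 98.7, 98.3, 98.3, 98.3, 97.6, 97.8, 95.2 and 97.9, with summits within 59 bp. Strong regions at other non-coding ends included a pseudogene end in Txndc16 (95.9 to 99.6), a start of the centromere cohesion gene Sgo1 beside a pseudogene end (95.1 to 99.4), the paired starts of Rsbn1l and A630072M18Rik (93.7 to 97.7), and the long non-coding starts Gm38882, 2900060B14Rik and Gm26901, each at 93.0 or above in every list. Reads from near-identical gene copies, as for transfer RNA genes and pseudogenes, can be placed at more than 1 copy, and the labels do not state how such reads were treated.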

How the data were processed

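Accessible chromatin was profiled by ATAC-seq in 24 samples of 8 groups, and 1 peak list per group was used. Per the submitters' processing notes, MACS2 2.1.1.20160309, bedtools 2.29.2, Bowtie and Picard were used with mm10. Their settings and whether a list pools its samples were not stated. Each deposited list gives, from the authors, a score per peak, a fold enrichment (a ratio), a −log10 p-value and a summit offset. Read depth is unknown, and the lowest −log10 p of a list ran from 7.86 to 40.2. The peak names of the day 0 epidermal list carry a control tag for day 7, and the list was used as labelled.

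Overlapping peaks of the 8 lists were joined, and a list held a region if a peak overlapped it by 1 bp. Distances to protein-coding genes, transcript starts and sequences came from RefSeq tables for GRCm38.p6. A region held a start if the start's 300 base window overlapped it by at least 1 bp. The authors' score and fold were ranked only within a list, or among the same 6656 regions. Shares have exact Clopper-Pearson 95% intervals, which cover counting error only. No test between groups was made, since each group had 1 list. The members and gene lists were chosen with earlier results of these data known. Regions were named by their extremes: the 10 strongest and 5 weakest by lowest and highest list percentile, the 5 widest, the 5 farthest, the 8 with the largest rank differences in each direction of 2 contrasts, and the 10 strongest at non-coding ends. Genes were the 10 with most members (ties by share of their distal regions), those fixed by name, and the 4 with most members in each list. The sets differing by 30 points, the start count by centre, the non-coding classes and the marker counts were chosen after values were seen. So were the chain and hairpin shares by class and the sequences shown. Alternatives changed the overlap, list length, score, window, distance limit and gene window, and left out each list. The joining of peaks, the holding by lists and the distances were tested on simulated data, and the ranking and start counts were not. Python 3.11.15, pandas 2.3.3, numpy 2.4.6, scipy 1.17.1 and matplotlib 3.10.9 were used. Exons, introns, UTRs and the sequences of regions away from a transcript start were not analysed here.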

Additional observations from a re-analysis of the deposited data

How the results depend on the processing

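No paired analysis was possible because each group had 1 list and the lists carry no replicate numbers. The count of 6656 fell to 2005 when the peaks of each list had to cover 50% of a region and to 2144 with the upper 50% of each list by score. The share inside a gene (52.5%) was 49.8% with the 50% cover, 50.5% beyond 5 kb of a gene end and 55.5% with the ends of all gene kinds. The share with summits within 100 bp (41.4%) was 33.4% with the 50% cover, 42.8% with lists of equal length, 46.4% with the upper 50% and 45.8% with 500 bp windows at summits. The share with a start (14.0%) was 15.2%, 19.96% and 13.1% with the cover, the upper 50% and the windows, 15.0% and 11.1% with limits of 500 bp and 5 kb, 9.36% with all gene kinds and 11.5% by centre. The median distance to a gene (0) was 1337 bp with the cover. The cause of these shifts was not tested. The rho of 0.38 was 0.56 with fold enrichment ranked and 0.35 without regions holding a start. Leaving out 1 list at a time gave counts of 6710 to 9469 (the highest without the hair follicle list), 51.2% to 52.6% inside a gene, 42.6% to 50.5% with close summits, 10.8% to 14.0% with a start, and a median distance of 0 throughout. With gene windows of 10 kb in place of 50 kb, 8 of 30 counts per list or gene moved by over 1.5 times, among them AP-1 (24 to 12), Ets2 (9 to 2) and Nfkb1 (9 to 5), while the AP-1 share was 31.6% (12 of 38) against 30.4%. With lists of equal length, 1 of 20 moved (hair follicle stem cell genes, 14 to 9). Alternatives for the share with a start, the count by centre and the rho without starts were chosen after seeing the data. One list per group, unknown read depth and unequal peak widths limit every comparison between lists.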
